A study of Mus musculus with 6 samples.

Results

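The enzymes of the mitochondrial citric acid cycle were followed step by step through 9 genes, Cs, Idh2, Idh3a, Idh3g, Ogdh, Suclg1, Sdha, Fh1 and Mdh2, taken by symbol from a table of 16095 genes. RNA had been sequenced from sorted kidney epithelial cells of mice in 6 libraries, 3 of Terf1_flox and 3 of control. The Terf1_flox mice were Trf1lox/lox (labelled Trf1 flox/flox), with both copies of Terf1, the gene of the telomere protein TRF1, flanked by recombination sites. The control mice were Trf1+/+. Both groups carried the KFP and Cre transgenes (KFP+/t Cre+/t), and the Cre was KspCadherin-CreERT2, an enzyme driven by the promoter of Cdh16 and switched on by tamoxifen. Both groups were also given tamoxifen, injected 3 times a week for 8 weeks from an age of 6 to 8 weeks, and males and females were injected. Kidneys were digested, and cells were sorted by an EpCAM antibody and their own KFP signal. The labels leave unstated whether mice were pooled for a library. Errors and p-values therefore measure the spread between libraries, which may be technical.

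The citric acid cycle takes the acetyl group of acetyl-CoA, joins it to oxaloacetate and oxidises it in the mitochondrial matrix, passing the electrons to NADH and to ubiquinone for the respiratory chain. Succinate dehydrogenase belongs to the cycle and to the respiratory chain, where it is complex II. Tubule cells of the kidney, those of the thick ascending limb and the distal convoluted tubule among them, are rich in mitochondria, which supply the ATP used by the sodium pump. Citrate, 2-oxoglutarate and malate also leave the cycle for other uses, and pyruvate, glutamine and branched-chain amino acids feed into it.

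Between 13582140 and 17680986 reads were assigned to the genes of a library, and each of the 9 genes had between 1160 and 31326 reads per library. Levels are normalized counts, reads divided by 1 scaling factor per library and not by gene length. Terf1 averaged 37.3 ± 21.4 normalized counts in Terf1_flox and 560 ± 92.7 in control libraries (SD, n = 3 each), 15.9-fold lower and without overlap; the exact two-sided permutation p was 0.1, the smallest that 3 libraries against 3 can give. The markers fitted the label of distal epithelium, with Umod and Slc12a3, of the thick ascending limb and the distal convoluted tubule, among the most abundant markers (Umod averaged 63592 ± 2840 normalized counts in Terf1_flox and 119814 ± 21723 in control libraries, and Slc12a3 averaged 73831 ± 17404 in Terf1_flox and 83547 ± 31245 in control libraries). Of 8 endothelial, 9 fibroblast and pericyte and 10 macrophage and monocyte markers, 1, 1 and 4 were in the table, and Pecam1, Pdgfrb, Col1a1 and Adgre1 were not among them. Some cell and RNA measures moved with the groups. The summed level of 8 thick ascending limb markers was 195315 to 209621 in Terf1_flox and 235007 to 284466 in control libraries. Without Umod the sums were 131116 to 144812 in Terf1_flox and 109461 to 146369 in control libraries, which overlap. Of the 8 markers 5 had a log2 fold change above 0, with a list median of 0.11 and a lowest value of −1.33. Without overlap 3 of the 8, Umod among them, were lower, against 10.8% of all genes tested. Only Slc12a1 was higher in every Terf1_flox library than in every control library. Of 9 intercalated cell markers 8 were below 0 (median −1.16), with Rhcg at −1.63 and Atp6v1b1 at −1.16 lower without overlap. Of 7 principal cell markers tested, 6 were below 0 (median −1.01), 2 of them without overlap. The summed levels of both lists overlapped, at 6866 to 13549 in Terf1_flox and 10269 to 23319 in control libraries for intercalated cells and 1444 to 2126 in Terf1_flox and 2036 to 4414 in control libraries for principal cells. The 13 proximal tubule markers in the table summed to 5522 to 14549 in Terf1_flox and 2796 to 4150 in control libraries. Epcam, a gene of the sort, held 1831, 1434 and 2977 normalized counts in Terf1_flox and 4510, 5087 and 4416 in control libraries. Cdh16, whose promoter drives the Cre, overlapped between groups (log2 fold change −0.35 ± 0.22, SE). Mitochondrially encoded genes took 16.2% to 20.6% of reads in Terf1_flox and 10.3% to 13.0% in control libraries. Ddx3y, a Y-linked gene, was at 3.04 normalized counts in Terf1_flox replicate 3 and at 123 to 951 in the other 5 libraries. Xist, the RNA of the inactive X chromosome of female cells, was at 1380 to 2872 in all 6 libraries. Those 5 libraries thus held RNA of both sexes. Whether this came from pooled mice was not tested. The part of these measures in the differences below was not tested, and in sorted bulk cells fewer cells of a type and less RNA per cell cannot be told apart.

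All 9 genes had lower mean levels in Terf1_flox than in control libraries, and for 7 of them every Terf1_flox library lay below every control library. Mdh2, Idh2, Ogdh and Sdha differed by more than 1 on the log2 scale, and Suclg1, at −0.33, differed least. Summed over the 9 genes, Terf1_flox libraries held 33993, 38496 and 37263 normalized counts, and control libraries 66696, 56473 and 89268. That was 0.225%, 0.244% and 0.241% of all normalized counts in Terf1_flox and 0.472%, 0.436% and 0.640% in control libraries. The Terf1_flox sums were close together and all below the lowest control sum.

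Genes entered the test with a mean of 10 or more, which gave 14822, and limma on log2 of the normalized count plus 1, with Benjamini-Hochberg adjustment, called 0 genes at an adjusted p below 0.05, so 0 of the 9 passed. At an unadjusted limma p below 0.05, 6 of the 9 were lower and 0 higher, where 8.43% of all genes tested were lower and 5.7% higher. The groups did not overlap, with Terf1_flox lower, for 7 of the 9 and for 10.8% of all genes. Well expressed genes reach these marks more often. Among the 849 genes whose mean lies in the range of the 9, from 1938 to 12666, 16.7% were lower at an unadjusted p below 0.05 and 18% were lower without overlap. The median log2 fold change of the 9 was −0.79, against −0.08 for all genes tested and 0.14 for those of that range. edgeR's quasi-likelihood test on the recovered reads made 0 calls at an adjusted p below 0.05, while 1993 genes (13.4%) had an unadjusted p under that value, where limma had 2095. DESeq2 called 4 of the 9 lower (Idh2, Mdh2, Sdha and Ogdh), against 3.34% of all genes it gave an adjusted p and 9.91% of those in the range of the 9. With limma, 3 of the 9 (Idh2, Sdha and Mdh2) were called lower when genes needed a mean of 50, against 0.855% of genes. With equal library totals it called 2 lower (Idh2 and Sdha), against 0.297%, and with quantile normalization 1 (Idh2), against 0.054%. The shares of genes lower at an unadjusted p below 0.05 were 11.1% with equal totals, 7.32% with quantile normalization and 6.96% with equal upper quartiles, where 8, 8 and 4 of the 9 were lower.

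**Figure D1:**
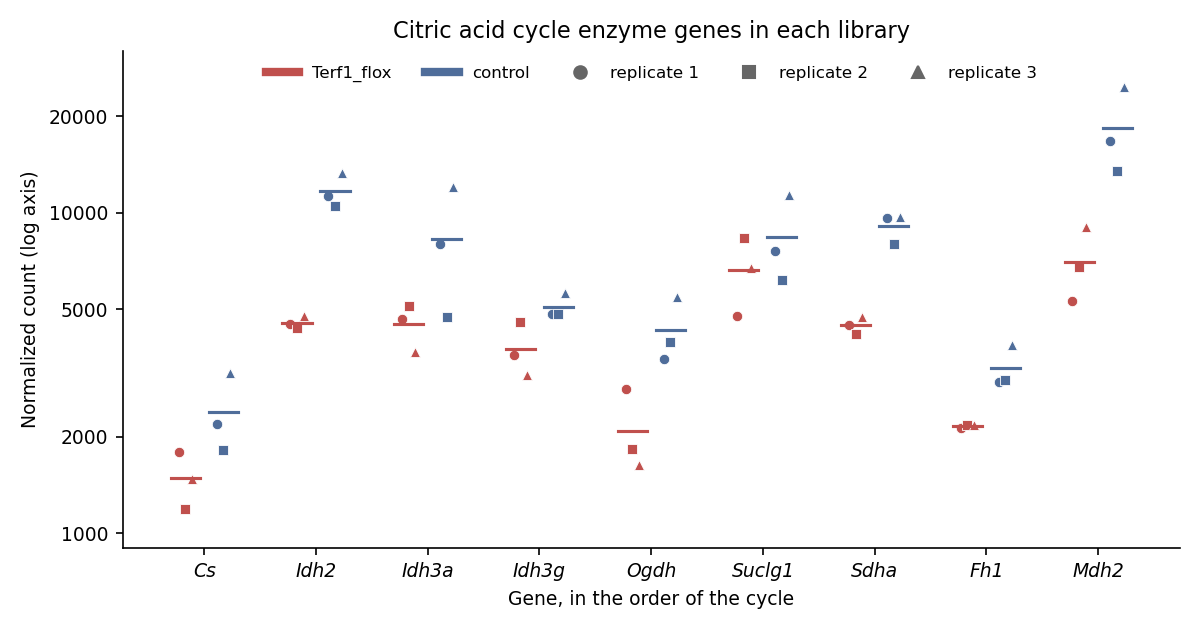
Normalized counts (log axis) of the 9 enzyme genes in each library, with Terf1_flox in red left of control in blue, a symbol for each replicate number and a line at the mean of 3 libraries. Idh2 and Sdha show narrow groups far apart, Idh3a and Suclg1 overlap between groups, and control replicate 3 is the highest control library for all 9 genes.

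The upstream sequences of the genes are given for 3 that differed most clearly, Idh2, Mdh2 and Sdha, and for Suclg1, which differed least. They are the 250 bases before the transcript start in RefSeq on build GRCm38.p6, read 5′ to 3′ on the strand of the gene. This build is older than GRCm39, which the submitters' processing notes name. The windows are chr7:80115351-80115600 on the minus strand, chr5:135778399-135778648 on the plus strand, chr13:74350241-74350490 on the minus strand and chr6:73248255-73248504 on the plus strand. Capitals mark the letters GGGCGG of a GC box, read on either strand.
Idh2: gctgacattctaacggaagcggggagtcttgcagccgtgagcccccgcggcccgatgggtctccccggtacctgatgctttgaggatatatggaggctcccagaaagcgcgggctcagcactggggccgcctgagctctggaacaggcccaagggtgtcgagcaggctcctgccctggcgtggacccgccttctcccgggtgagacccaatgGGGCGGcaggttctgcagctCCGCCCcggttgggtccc
Mdh2: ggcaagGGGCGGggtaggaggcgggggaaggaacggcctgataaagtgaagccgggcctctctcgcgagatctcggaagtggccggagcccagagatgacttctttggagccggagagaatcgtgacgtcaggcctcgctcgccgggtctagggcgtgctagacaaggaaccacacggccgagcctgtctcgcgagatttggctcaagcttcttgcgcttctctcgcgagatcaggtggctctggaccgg
Sdha: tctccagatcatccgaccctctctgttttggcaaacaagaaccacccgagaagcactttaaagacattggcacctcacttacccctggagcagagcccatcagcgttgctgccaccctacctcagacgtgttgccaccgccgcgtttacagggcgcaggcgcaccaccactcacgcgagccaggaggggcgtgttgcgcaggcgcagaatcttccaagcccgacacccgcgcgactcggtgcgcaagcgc
Suclg1: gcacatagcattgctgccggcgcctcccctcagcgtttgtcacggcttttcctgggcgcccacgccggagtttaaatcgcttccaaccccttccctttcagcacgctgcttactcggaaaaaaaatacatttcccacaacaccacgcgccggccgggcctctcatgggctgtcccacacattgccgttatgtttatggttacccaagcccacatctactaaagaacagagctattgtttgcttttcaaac
Idh2 had 67.2% G and C in this window with 17 CpG pairs, Mdh2 63.2% with 23, Sdha 61.6% with 21 and Suclg1 53.2% with 15, where the median of 10370 tested genes was 59.6% with 15. The windows not shown had 57.2% with 18 for Ogdh, 62.8% with 24 for Idh3g, 55.2% with 13 for Cs and 52.8% with 10 for Fh1. A link between these values and the fold changes was not tested. The GC box letters stood in the windows of Cs, Idh2, Fh1 and Mdh2, which are 4 of the 8 genes with a window, and in 57.3% of the windows of tested genes. The core letters of the element bound by oestrogen-related receptors, AAGGTCA, were in 0 of the 8 windows and in 2.78% of the windows of tested genes. The NRF1 motif, searched only in its exact palindromic letters, was in 0 of the 8 and in 1.55%. Other forms of the NRF1 motif were not searched. These counts therefore cannot tell whether Sdha or another of the 8 genes has an NRF1 site in its window. The ETS letters CCGGAAG were in that of Idh3g alone, against 13.8% of the windows of tested genes. No window was at hand for Idh3a. All 4 motifs were searched on both strands, and none of the matches overlapped another.

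Citrate synthase, the product of Cs, joins acetyl-CoA to oxaloacetate and opens the cycle. Cs held 1789, 1190 and 1471 normalized counts in Terf1_flox libraries, against 2196, 1818 and 3166 in control libraries. The highest Terf1_flox library lay just under the lowest control library. Its log2 fold change was −0.67 ± 0.30 (SE; limma adjusted p = 0.358).

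Isocitrate is oxidised to 2-oxoglutarate by 2 kinds of mitochondrial enzyme. Idh2 is the NADP-linked enzyme, which supplies the matrix with NADPH. It held 4491, 4352 and 4748 normalized counts in Terf1_flox libraries, against 11240, 10515 and 13335 in control libraries. The lowest control library was above the highest Terf1_flox library by more than the whole spread of either group, and within a group the libraries lay close together (coefficient of variation 4.43% in Terf1_flox and 12.5% in control). The log2 fold change of Idh2 was −1.36 ± 0.17, 2.57-fold lower, with the smallest limma adjusted p of the 18 cycle genes, 0.0742. A correction for the GC content and length of transcripts gave −0.95, or −0.90 with the principal transcripts of the annotation.

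Idh3a encodes the catalytic subunit of the NAD-linked enzyme, and Idh3b and Idh3g its other subunits. Idh3a held 4660, 5104 and 3683 normalized counts in Terf1_flox and 8005, 4718 and 12033 in control libraries. Control replicate 2 lay within the Terf1_flox range, and the control libraries spread more widely than for any other of the 9 genes (coefficient of variation 44.4%). The log2 fold change was −0.79 ± 0.33 (limma adjusted p = 0.328), −0.47 without control replicate 3 and −1.14 without control replicate 2. Idh3g, which lies on the X chromosome, held 3585, 4553 and 3109 in Terf1_flox and 4825, 4828 and 5611 in control libraries. The groups stood apart by a small gap, and the log2 fold change was −0.45 ± 0.21 (limma adjusted p = 0.386). For Idh3g the GC content and length correction gave −0.18. Xist, the RNA of the inactive X chromosome, overlapped between groups (1577, 2241 and 2700 in Terf1_flox, 1911, 2872 and 1380 in control libraries), and with Xist as a covariate Idh3g was at −0.44. Idh3b, outside the 9, averaged 3886 ± 184 in Terf1_flox and 6534 ± 210 in control libraries (−0.75 ± 0.17; limma adjusted p = 0.137), and −0.40 was left once GC content and length were corrected for.

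The 2-oxoglutarate dehydrogenase complex turns 2-oxoglutarate into succinyl-CoA. Ogdh encodes its E1 component, Dlst its E2 and Dld its E3, which is shared with the pyruvate and branched-chain dehydrogenases. Ogdh held 2807, 1832 and 1626 normalized counts in Terf1_flox libraries, against 3489, 3942 and 5450 in control libraries. All Terf1_flox libraries were lower, with replicate 1 nearest to the control range. Ogdh thus differed by −1.05 ± 0.29 on the log2 scale (adjusted p = 0.185 with limma and 0.0223 with DESeq2). Dlst was at −0.96 ± 0.41, without overlap, and Dld was the single cycle gene with a positive value, at 0.33 ± 0.32 with overlapping groups (limma adjusted p = 0.343 and 0.689). Without Terf1_flox replicate 2, Dlst was at −0.57. Leaving out 1 library at a time, Dld ran from 0.04 (without control replicate 2) to 0.68 (without control replicate 3), and both corrections for GC content and length left it between 0 and 0.02.

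Succinyl-CoA ligase makes succinate together with GTP or ATP. Suclg1 encodes the alpha subunit that pairs with the ADP-forming beta subunit of Sucla2 or the GDP-forming one of Suclg2. Suclg1 held 4744, 8364 and 6734 normalized counts in Terf1_flox and 7589, 6185 and 11366 in control libraries. The ranges overlapped, and the log2 fold change of −0.33 ± 0.29 (limma adjusted p = 0.649) shrank to −0.09 when control replicate 3 was left out and to −0.11 when Terf1_flox replicate 1 was. The 2 corrections for GC content and length gave −0.37 and, with principal transcripts, −0.14. Sucla2 (−0.43 ± 0.33) and Suclg2 (−0.40 ± 0.33) overlapped between groups as well (limma adjusted p = 0.605 and 0.634). Without control replicate 3 they were at −0.10 and −0.12, and Sucla2 was at −0.82 without control replicate 2. Suclg2 was at −0.64 without Terf1_flox replicate 1 and −0.18 without Terf1_flox replicate 2.

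Sdha is the flavoprotein subunit of succinate dehydrogenase, which oxidises succinate to fumarate. It held 4476, 4185 and 4721 normalized counts in Terf1_flox libraries, against 9641, 7996 and 9716 in control libraries. The groups were tight and far apart, 2.04-fold lower in Terf1_flox (log2 fold change −1.03 ± 0.18; limma adjusted p = 0.0845). The GC content and length correction gave −0.81 for Sdha. The other subunits differed less. Sdhb, the iron-sulfur subunit, averaged 22010 ± 3235 in Terf1_flox and 27487 ± 7660 in control libraries. Its log2 fold change of −0.29 ± 0.23 became 0.07 after that correction and −0.02 with principal transcripts. The membrane anchors Sdhc and Sdhd were at −0.62 ± 0.25, without overlap, and −0.23 ± 0.27, with overlap (limma adjusted p = 0.314 and 0.74). Without Terf1_flox replicate 1, Sdhd was at 0.01.

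Fumarase, the product of Fh1, hydrates fumarate to malate. Fh1 held 2134, 2168 and 2173 normalized counts in Terf1_flox libraries, against 2964, 3001 and 3863 in control libraries. The Terf1_flox libraries differed among themselves by 0.970% (coefficient of variation), the least of the 9 genes in either group. The log2 fold change was −0.59 ± 0.22 (limma adjusted p = 0.277), and −0.59 or −0.49 after the 2 corrections for GC content and length.

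Mdh2 encodes the mitochondrial malate dehydrogenase, which closes the cycle and also serves the malate-aspartate shuttle. It held 5306, 6748 and 8998 normalized counts in Terf1_flox libraries, against 16748, 13471 and 24728 in control libraries. The groups stood well apart although each was broad. The log2 fold change of −1.37 ± 0.27, 2.59-fold lower, was the lowest of the 9 (limma adjusted p = 0.108; DESeq2 adjusted p = 0.000236), and it was −1.21 or −0.96 after the 2 corrections.

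**Figure D2:**
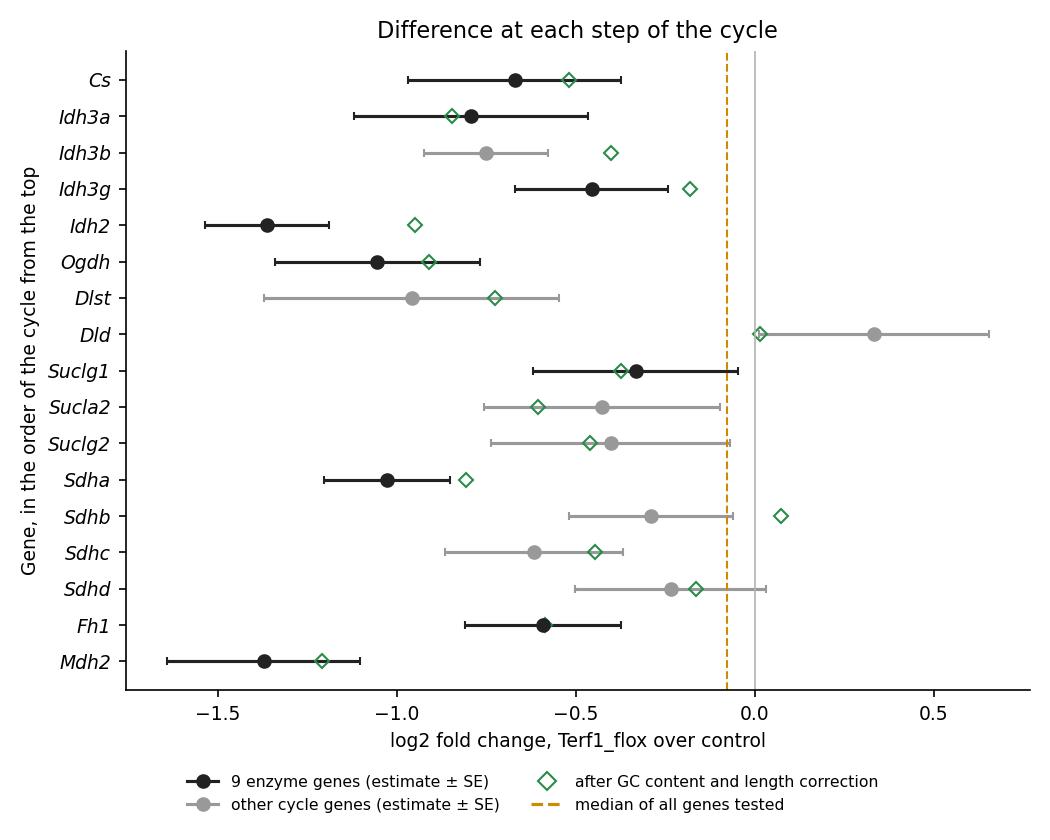
Log2 fold change of Terf1_flox over control ± SE (limma) for 17 cycle genes in the order of the reactions, the 9 enzyme genes in black and the others in grey, with open diamonds for values corrected for GC content and length and a dashed line at the median of all genes tested. Only Dld lies above 0 before the correction, Sdhb joins it after, and Mdh2 and Idh2 lie furthest to the left.

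Of the 9 other cycle genes, 0 were called by limma. At an unadjusted limma p below 0.05, 4 were lower and 0 higher, where 8.43% and 5.7% of all genes tested were. Without overlap 4 were lower, Idh3b, Dlst and Sdhc among them, against 10.8% of all genes tested. Over all 18 genes 17 had a log2 fold change below 0, as had 52.8% of all genes tested. Fold changes of all genes moved with the GC content of their transcripts. Genes of the lowest of 5 equal GC bins had a median log2 fold change of 0.37 and those of the highest −0.49. Idh2 and Mdh2 belong to the highest bin, while Idh3a and Fh1 belong to the second lowest, whose median was 0.06. Each of the 9 genes lay below the median of its own bin, and so did 8 of the 9 other cycle genes.

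**Figure D3:**
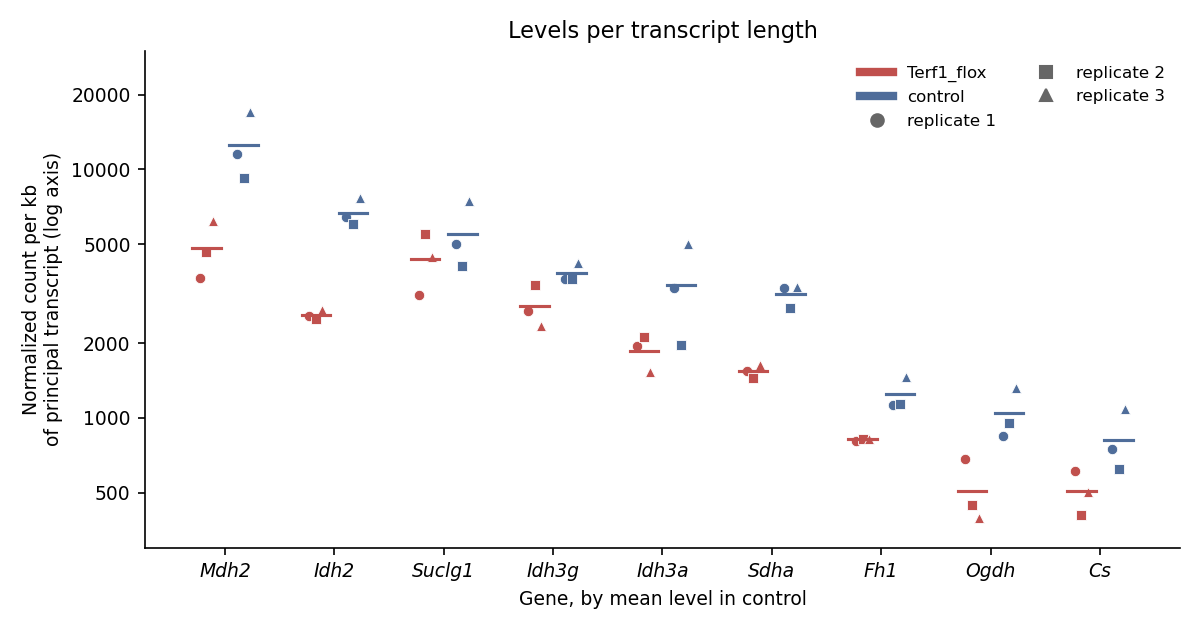
Normalized counts per kilobase of the principal annotated transcript (log axis) in each library, with Terf1_flox in red left of control in blue, lines at the means and genes ordered by their control mean. Mdh2 stands highest in both groups, and Idh2 is next in control libraries but behind Suclg1 and Idh3g in Terf1_flox libraries.

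Levels of different genes were compared only per transcript length. Per kilobase, Mdh2 was the most abundant of the 9 in both groups, at 4820 ± 1278 normalized counts in Terf1_flox and 12579 ± 3977 in control libraries. In Terf1_flox libraries Suclg1 (4354), Idh3g (2817) and Idh2 (2596) came next, followed by Idh3a (1865), Sdha (1538), Fh1 (819), Ogdh (507.4) and Cs (507.1). In control libraries the order was Idh2 (6703), Suclg1 (5517), Idh3g (3823), Idh3a (3434), Sdha (3144), Fh1 (1243), Ogdh (1043) and Cs (818). Neighbours in these orders mostly overlapped between libraries. Gaps without overlap stood between Mdh2 and Idh2 and between Sdha and Fh1 in control libraries. In Terf1_flox libraries they stood between Idh2 and Idh3a, between Sdha and Fh1 and between Fh1 and Ogdh. Idh2 thus ranked behind Suclg1 and Idh3g on this scale in Terf1_flox and ahead of them in control libraries. Its libraries overlapped with those of Idh3g in Terf1_flox and with those of Suclg1 in control, but not with those of Suclg1 in Terf1_flox or of Idh3g in control.

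Ratios of 2 genes within a library do not depend on the scaling between libraries, and 12 pairs were compared. The groups did not overlap for 4 pairs; each had an exact two-sided permutation p of 0.1, the smallest possible here, and 0.3 after adjustment over the 12 pairs. The ratio of Sdha to Sdhb was 0.245, 0.177 and 0.196 in Terf1_flox libraries, against 0.322, 0.423 and 0.289 in control libraries. On the log2 scale it was lower by a difference of −0.74 ± 0.21 (SE). The ratio of Ogdh to Dld was 0.535, 0.249 and 0.253 in Terf1_flox and 0.757, 1.19 and 0.673 in control libraries, a log2 difference of −1.39 ± 0.44. Sdha relative to Sdhb and Ogdh relative to Dld were thus lower in every Terf1_flox library than in every control library. The ratios were not corrected for GC content and length. After the 2 corrections for these, the log2 fold change of Sdha was −0.81 or −0.91 and that of Sdhb 0.07 or −0.02. Ogdh was then at −0.91 or −0.88 and Dld at 0.02 or 0.01.

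The ratio of Mdh2 to Mdh1, the cytosolic malate dehydrogenase, was 0.149, 0.171 and 0.213 in Terf1_flox libraries, against 0.320, 0.417 and 0.458 in control libraries. Mdh1 itself averaged 39103 ± 3280 in Terf1_flox and 46203 ± 12056 in control libraries (−0.21 ± 0.20; limma adjusted p = 0.693) and overlapped between groups, and the log2 difference of the ratio was −1.16 ± 0.22. After the 2 corrections for GC content and length, Mdh2 was at −1.21 or −0.96 and Mdh1 at −0.18 or −0.21. Cs was then at −0.52 or −0.44. The ratio of Cs to Mdh2 was 0.337, 0.176 and 0.164 in Terf1_flox and 0.131, 0.135 and 0.128 in control libraries. It was nearly fixed over the control libraries and varied among the Terf1_flox libraries, with replicate 1 highest (log2 difference 0.70 ± 0.33, or 0.37 without that library). The other 8 pairs overlapped. Among the 3 subunits of the NAD-linked isocitrate dehydrogenase, the log2 difference was −0.04 ± 0.38 for Idh3a to Idh3b, 0.30 ± 0.14 for Idh3g to Idh3b and −0.34 ± 0.34 for Idh3a to Idh3g. Suclg1 to Sucla2 differed by 0.09 ± 0.29, Suclg1 to Suclg2 by 0.07 ± 0.52 and Ogdh to Dlst by −0.10 ± 0.51. Idh2 to Idh3a was at −0.57 ± 0.34 and Idh2 to Idh1, the cytosolic enzyme, at −0.54 ± 0.80. The exact permutation p of these 8 pairs ran from 0.2 to 1.

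**Figure D4:**
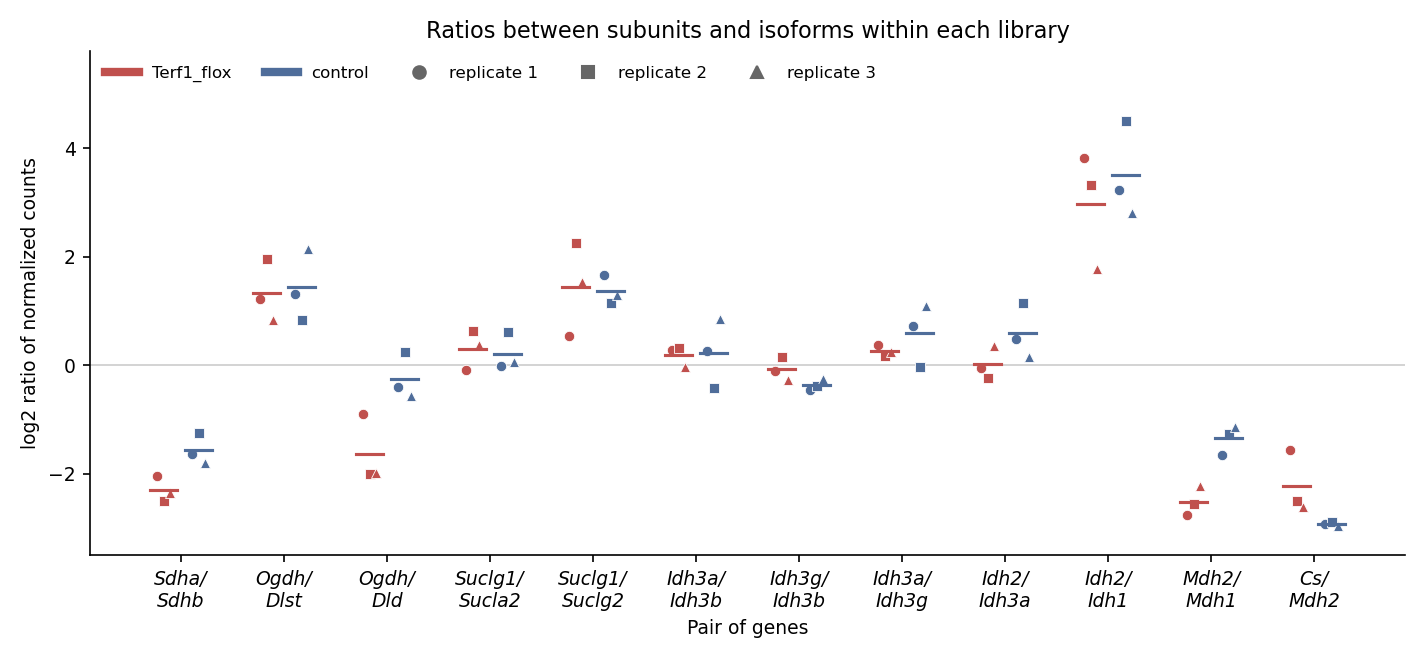
Log2 ratio of the normalized counts of 2 genes within each library for 12 pairs, with Terf1_flox in red left of control in blue and lines at the means. Sdha/Sdhb, Ogdh/Dld and Mdh2/Mdh1 are lower in all Terf1_flox libraries and Cs/Mdh2 is higher, while the other 8 pairs overlap.

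Genes that lead pyruvate into the cycle lay in both directions, but more often lower. Their log2 fold change was below 0 for 11 of 14, as for 52.8% of all genes tested, with a median of −0.50. Of these 14, 0 were called by limma. At an unadjusted limma p below 0.05 there were 3 lower and 3 higher, against 8.43% and 5.7% of all genes tested. Pdha1, the catalytic subunit of pyruvate dehydrogenase, held 3249, 3340 and 3132 normalized counts in Terf1_flox and 5644, 4268 and 7126 in control libraries (−0.78 ± 0.23; limma adjusted p = 0.202). The kinase Pdk2, which switches that enzyme off, was at −1.29 ± 0.36, and the phosphatase Pdp2, which switches it on, at −3.10 ± 0.78 (limma adjusted p = 0.19 and 0.154). After the GC content and length correction Pdk2 was at −0.73 and Pdp2 at −3.34. The 3 with higher values, of which Mpc2 and Pdk4 were picked after their values were seen, were both mitochondrial pyruvate carrier genes and Pdk4. Mpc1 held 34977, 40788 and 33072 in Terf1_flox and 25608, 17067 and 25338 in control libraries (0.70 ± 0.19; limma adjusted p = 0.178). Mpc2 was at 0.39 ± 0.13 and Pdk4, a kinase induced by fasting, at 2.40 ± 0.88 (limma adjusted p = 0.232 and 0.277). Without control replicate 3, Pdk4 was at 1.44. With quantile normalization Mpc1 was at 0.36 and Mpc2 at 0.01, and Mpc1 was at 0.37 or 0.28 after the 2 corrections for GC content and length.

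Among 20 tested genes of side reactions, 0 were called by limma. At an unadjusted limma p below 0.05, 8 were lower and 2 higher, against 8.43% and 5.7% of all genes tested. Got2, the mitochondrial aspartate aminotransferase, was at −1.84 ± 0.34, the malic enzyme Me3 at −1.38 ± 0.24 and Pcca, a subunit of propionyl-CoA carboxylase, at −1.44 ± 0.32 (limma adjusted p = 0.0926, 0.0881 and 0.128). After the GC content and length correction Got2, Me3 and Pcca were at −1.39, −1.59 and −1.85. With principal transcripts they were at −1.39, −1.56 and −1.39. Where 8.43% of all genes tested were lower at an unadjusted limma p below 0.05, 1 of 6 cytosolic counterparts was. That gene, Got1, the cytosolic aspartate aminotransferase, held 1140, 1460 and 1319 in Terf1_flox and 2412, 4038 and 4857 in control libraries (−1.48 ± 0.30; limma adjusted p = 0.115). The 2 corrections for GC content and length left Got1 at −1.09 or −1.10. Acly, Aco1 and Idh1 were at −0.78 ± 0.37, −0.70 ± 0.43 and −0.83 ± 0.67.

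Of 15 genes that mature or modify cycle enzymes, 1 was lower and 1 higher at an unadjusted limma p below 0.05. These counts are near the shares of 8.43% and 5.7% over all genes tested. Sdhaf4, an assembly factor that works on the Sdha protein, held 3766, 3313 and 3710 normalized counts in Terf1_flox and 2233, 1199 and 1593 in control libraries, higher where Sdha was lower (1.15 ± 0.27; limma adjusted p = 0.142). Sdhaf4 was at 0.74 after the GC content and length correction and at 0.52 with principal transcripts. Sdhaf1 was at −2.56 ± 1.25 and the deacylase Sirt5 at −0.79 ± 0.40 (limma adjusted p = 0.4 and 0.416). Without Terf1_flox replicate 1, Sdhaf1 was at −0.91. Of 15 transcription regulators of mitochondrial genes, 0 reached an unadjusted limma p below 0.05. Ppargc1a, the coactivator PGC-1 alpha, held 7570, 5671 and 5862 in Terf1_flox and 4969, 4508 and 4899 in control libraries (0.40 ± 0.19; limma adjusted p = 0.393), with 0.44 after the GC content and length correction and −0.25 in its version with principal transcripts. Esrra, its partner ERR alpha, was at 0.76 ± 0.48, Pprc1 at 2.60 ± 1.24 and Ppara at −2.13 ± 1.17 (limma adjusted p = 0.512, 0.388 and 0.457). Pprc1 and Ppara were low, with 285 and 201 reads in total over the 6 libraries. Pprc1 averaged 76.9 ± 53.9 normalized counts in Terf1_flox and 17.9 ± 23.4 in control libraries, and the groups overlapped. Ppara averaged 13.0 ± 10.9 in Terf1_flox and 46.4 ± 20.0 in control libraries. The regulators as a list had a median log2 fold change of 0.18, while the 9 enzyme genes were at −0.79.

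Among 10753 other genes with a mean of at least 50, the profile most like the mean of the 9 over the 6 libraries was that of Pdha1. The root mean square difference of its centred log2 values from that mean was 0.07. Phb2 (0.08), Prkar1a (0.08), Pradc1 (0.08), Timm23 (0.09) and Umod (0.09) followed. The 9 genes themselves differed from their own mean by 0.15 (Fh1) to 0.35 (Suclg1 and Mdh2). These are descriptions over 6 libraries that share their groups and scaling.

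The size of the difference rested in part on the control libraries. Control replicate 3 was the highest control library for all 9 genes and for 17 of the 18 cycle genes. The median log2 fold change of the 9 was −0.47 without it and −1.10 without control replicate 2. Among the Terf1_flox libraries no replicate stood above the others, with 2, 3 and 4 of the 9 genes highest in replicates 1, 2 and 3. All 9 values stayed below 0 in each of the 20 alternative fits, and below the median of all genes in each but 1, the correction with principal transcripts, where 8 of 9 did.

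**Figure D5:**
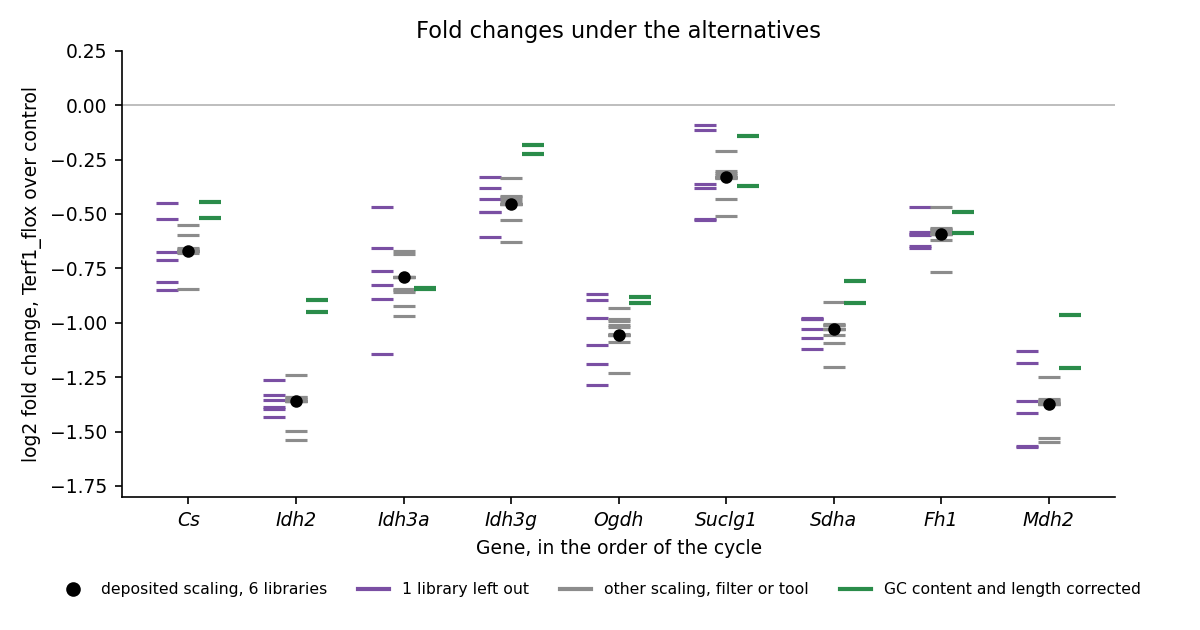
Log2 fold change of Terf1_flox over control for the 9 genes with the deposited scaling (black dots), with 1 library left out (purple), with other scalings, filters or tools (grey) and after correction for GC content and length (green). Every value lies below 0, and those of Idh3g and Suclg1 come nearest to it.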

How the data were processed

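The authors deposited 1 table of normalized counts per gene and library, treated here as a signal: reads over a size factor. DESeq2 and build GRCm39 come from the submitters' processing notes; aligner, counter, strand handling and gene filter were not stated in those notes, the labels or the table. Dividing by each library's smallest step gave whole reads for 100% of values (tolerance 0.01 read), 13582140 to 17680986 per library. Depth covers counting error only.

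The test was limma 3.58.1 in R 4.3.3 (trended empirical Bayes, two-sided) on log2(normalized count + 1) for 14822 genes with a mean of 10 or more, with Benjamini-Hochberg adjustment over all of them and a threshold of 0.05. Fold changes are Terf1_flox over control on that scale, which understates changes of low genes; ± is the SE after a fold change or log2 difference and the SD after a level (n = 3 each). Alternatives were edgeR 4.0.16 and DESeq2 1.42.0 on the recovered reads, other pseudocounts, filters and scalings, array weights, a replicate block, Xist as covariate, leaving out each library, and a spline correction (4 degrees of freedom) for GC content and length, taken as medians over protein-coding GENCODE M21 transcripts (GRCm38; 14489 genes). A version with APPRIS principal transcripts (11834 genes) was chosen after seeing the data. The code was tested on simulated data. DESeq2 gave 1544 genes no adjusted p, 0 of them among the 9. The 9 genes and all lists were chosen with earlier results of these data known. Named genes were the 9, the other cycle genes, genes of the compared pairs, up to 4 genes per further list by smallest p, the 6 of most like profile (by root mean square difference), Terf1, Epcam and Cdh16. Some genes that this rule names are counted in their lists but not reported here. Cell type markers, Ddx3y and Xist were named to describe the libraries. Figures used matplotlib 3.10.9.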

Additional observations from a re-analysis of the deposited data

How the results depend on the processing

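The 9 enzyme genes gave 180 values over 20 alternatives, all below 0; 170 stayed on the same side of the threshold and 10 passed it. The limma count of called genes, 0 with the deposited scaling, was 132 where genes needed a mean of 50, 45 for equal library totals and 8 for quantile normalization, and DESeq2 called 772. The count among the 9 was then 3 (Idh2, Sdha and Mdh2), 2 (Idh2 and Sdha), 1 (Idh2) and 4. In the fits with 1 library left out both counts were 0 throughout. The median of the 9 ran from −1.10 to −0.47 in those fits. At an unadjusted p below 0.05 there were 4 to 8 of the 9 over all alternatives, with 4 at equal upper quartiles and without control replicate 3. The share of all genes at that mark is given above only for some of these fits. The other counts have no such share beside them and describe the 9 alone. The median of all genes shifted by −0.17 for equal totals, 0.11 for equal upper quartiles, 0.13 for quantile normalization, 0.10 for edgeR and for DESeq2 and −0.11 with principal transcripts. Relative to it the median of the 9 was −0.72, −0.71, −0.98, −0.87, −0.88 and −0.65, in that order, against −0.71 with the deposited scaling. The labels state no pairing of libraries by replicate number. Same-numbered libraries shared little of their deviation from the group mean (correlations −0.05, 0.00013 and −0.0069). Whether the libraries were handled in pairs cannot be told from these values. With the replicate block 0 genes were called. In that fit 5 of the 9 had an unadjusted p below 0.05, and the share of all genes is not given for it.

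Sdhb was at 0.073 after the GC content and length correction. Leaving out 1 library, Sdhd ran from −0.405 to 0.0061, and 5 ratios that overlapped between groups turned their sign. Their log2 differences then ran from −0.405 to 0.261 for Ogdh/Dlst, −0.0685 to 0.293 for Suclg1/Sucla2, −0.337 to 0.524 for Suclg1/Suclg2, −0.367 to 0.264 for Idh3a/Idh3b and −0.962 to 0.0665 for Idh2/Idh1. The cause of these changes was not tested. Each of the 9 genes had 1160 reads or more per library.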
